A study of Rattus norvegicus with 10 samples.

Results

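Wfs1, for wolframin, was described together with 9 other genes of calcium release from the endoplasmic reticulum (ER) in the supraoptic nucleus (SON) of dehydrated rats. The set held 10 genes of 32402 listed, and all 10 were among the 15311 tested. The set was selected on the measured fall of Wfs1, its level in dehydrated against euhydrated libraries, so the values of Wfs1 are a description with no test. The other genes were taken for their role, with earlier results of these data known. They were Cisd2, the inositol trisphosphate receptor genes Itpr1, Itpr2 and Itpr3, the ryanodine receptor genes Ryr1, Ryr2 and Ryr3, and the calcium sensor genes Stim1 and Stim2. Polyadenylated RNA was sequenced from bilateral SON punches of Wistar Han rats, and no age or sex is used here. The dehydrated group (n = 5 libraries) had drinking water removed for 72 h, and the euhydrated control group (n = 5 libraries) drank freely. Cages rather than single rats were allotted at random, and the labels do not say that each library is 1 rat, so the p-values rest on the variation among these libraries alone, and some of it may be technical.

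The ER is the main calcium store of a neurone. Calcium is pumped in by SERCA pumps and leaves through inositol trisphosphate receptors, opened after receptors that activate phospholipase C, and through ryanodine receptors, opened by calcium itself. STIM proteins sense the loss of luminal calcium and open ORAI channels in the plasma membrane, so that the store refills. Wolframin is a glycoprotein of the ER membrane tied to ER calcium and to the control of the stress sensor ATF6. Loss of WFS1 in people causes Wolfram syndrome, whose features include diabetes insipidus from lack of vasopressin, and CISD2 is the gene of another form of the syndrome. Magnocellular neurones of the SON, which make vasopressin and oxytocin, release peptide from their dendrites after calcium leaves this store.

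Each library held 24268398 to 28491926 counts, and the peptide transcripts that define the nucleus were abundant in every one: Avp averaged 8475 CPM in dehydrated and 6153 CPM in euhydrated libraries, and Oxt averaged 3394 CPM in dehydrated and 2993 CPM in euhydrated libraries. CPM here are read counts scaled to a common library size by TMM, which does not correct for transcript length, so levels are compared between libraries and not between genes. In the comparison of all genes 12.7% passed an edgeR adjusted p of 0.05, 1192 higher and 750 lower in dehydrated libraries. Scaling to library totals instead gave 904 higher and 1173 lower. Fold changes are dehydrated over euhydrated. In a punch, fewer cells of a type and less RNA per cell cannot be told apart.

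Wfs1 (ENSRNOG00000005108) stood at 38.5, 38.7, 44.9, 49.6 and 40.0 CPM in dehydrated libraries 1 to 5, against 77.7, 54.6, 56.0, 74.5 and 72.6 CPM in euhydrated libraries 1 to 5. The groups did not overlap. Euhydrated 2 and 3 were low within their group and dehydrated 4 was high within its own, which left 49.6 and 54.6 CPM as the nearest pair across the groups. The means were 42.3 ± 4.82 CPM in dehydrated and 67.05 ± 10.9 CPM in euhydrated libraries (SD, n = 5 each), a log2 fold change of -0.66 ± 0.12 (SE), or 1.58-fold lower. Among all genes tested 2.01% had a larger change in either direction, a description only, since Wfs1 was chosen for its fall. Leaving out any 1 library kept the log2 fold change between -0.73 and -0.61, the smallest without euhydrated 1 and the largest without euhydrated 2. In the authors' deposited table it was -0.66 with an SE of 0.10.

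**Figure D1:**
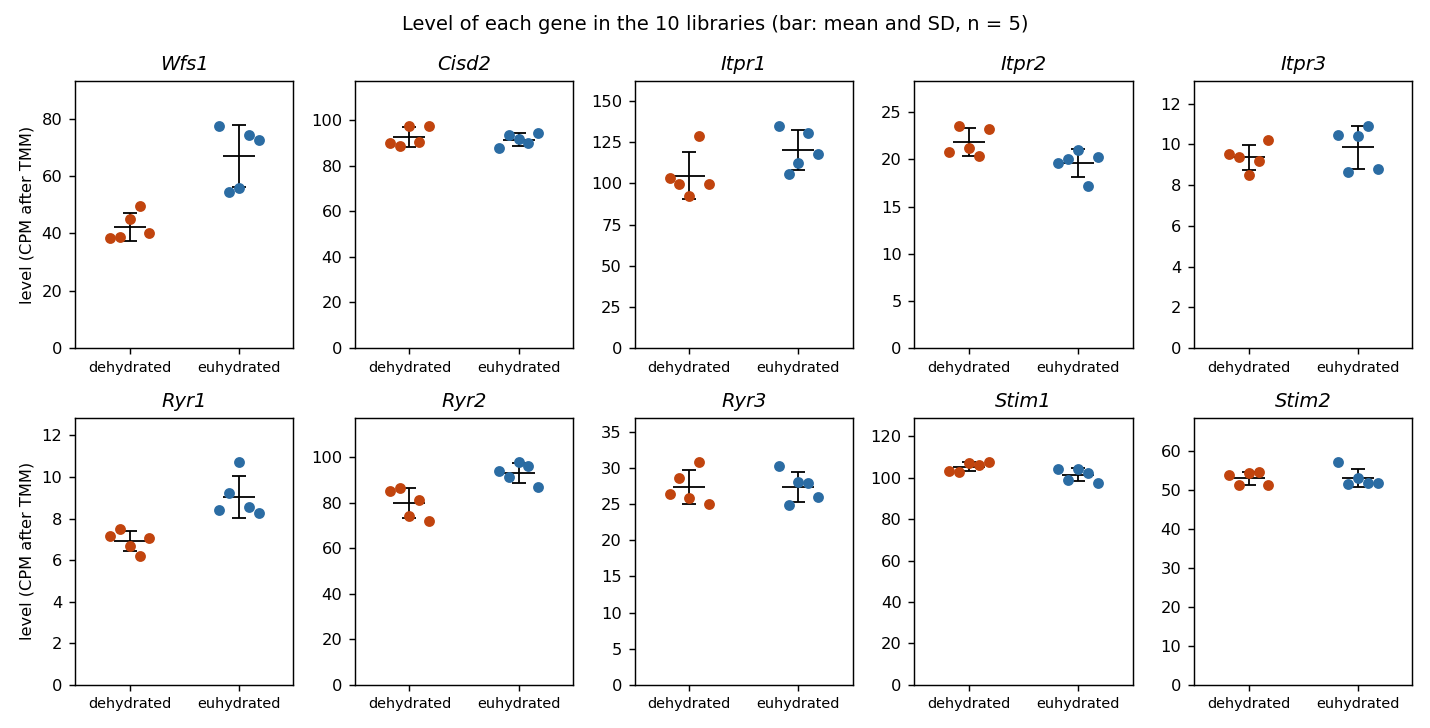
Level of each of the 10 genes (y axis, CPM after TMM scaling, from 0) in dehydrated (orange, left) and euhydrated (blue, right) libraries; each point is a library and the bars give the mean and SD (n = 5). Wfs1, Ryr1 and Ryr2 show no overlap between the groups, and the groups overlap for the other 7 genes.

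Cisd2 (ENSRNOG00000048258) encodes an iron-sulphur protein of the ER and outer mitochondrial membranes. Its level was 89.7, 88.4, 97.3, 90.5 and 97.5 CPM in dehydrated libraries 1 to 5, against 87.5, 93.5, 91.4, 90.1 and 94.3 CPM in euhydrated libraries 1 to 5. The groups overlapped, with dehydrated 3 and 5 above every euhydrated library and euhydrated 1 the lowest of all. The log2 fold change was 0.02 ± 0.04 (SE), with a 95% interval of -0.07 to 0.11 (adjusted p = 0.780 by edgeR), and its sign turned with library totals and with a covariate for erythrocyte markers.

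Of the ryanodine receptor genes, Ryr1 and Ryr2 fell and Ryr3 did not pass. Both calls were lost with a covariate for erythrocyte markers, at a log2 fold change of -0.38 ± 0.12 for Ryr1 (SE, adjusted p = 0.0915 by edgeR) and -0.16 ± 0.07 for Ryr2 (0.189). Without the covariate these were -0.38 ± 0.09 and -0.22 ± 0.05, so the change of Ryr1 was of like size and its SE smaller. Ryr2 (ENSRNOG00000017060), the receptor known from heart and widespread in brain, stood at 85.1, 86.6, 74.2, 81.4 and 72.0 CPM in dehydrated libraries 1 to 5. In euhydrated libraries 1 to 5 it stood at 94.0, 91.5, 97.9, 96.1 and 86.8 CPM. The groups did not overlap, but dehydrated 2 at 86.6 CPM and euhydrated 5 at 86.8 CPM lay side by side. Ryr2 averaged 79.9 ± 6.53 CPM in dehydrated and 93.2 ± 4.32 CPM in euhydrated libraries (SD, n = 5 each), 1.17-fold lower, with a log2 fold change of -0.22 ± 0.05 (SE; adjusted p = 0.0104 by edgeR).

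Ryr1 (ENSRNOG00000020557), the receptor known from skeletal muscle, had few counts, 147 to 307 in a library. It stood at 7.17, 7.47, 6.69, 6.20 and 7.08 CPM in dehydrated libraries 1 to 5, against 8.42, 9.23, 10.7, 8.56 and 8.26 CPM in euhydrated libraries 1 to 5. Every dehydrated library lay below every euhydrated one, with euhydrated 3 the highest of all. The fall was 1.31-fold, with a log2 fold change of -0.38 ± 0.09 (SE; adjusted p = 0.0101 by edgeR). Skeletal muscle markers summed to 13.8 to 17.2 CPM in dehydrated and 12.1 to 15.6 CPM in euhydrated libraries, over 5 of 6 listed markers, and their part in the result was not tested.

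Ryr3 (ENSRNOG00000006645), a receptor of brain and other tissues, was at 26.5, 28.7, 25.8, 30.8 and 25.1 CPM in dehydrated libraries 1 to 5. In euhydrated libraries 1 to 5 it was at 30.3, 24.9, 28.0, 28.0 and 25.9 CPM. These ranges coincided, and the log2 fold change was -0.0050 with a 95% interval of -0.15 to 0.14 (adjusted p = 0.973 by edgeR). Its sign was not stable across settings.

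Whether the ryanodine receptor genes changed unequally was asked of the log2 ratio of their counts within each library, a comparison chosen after the values were seen. The ratio of Ryr2 to Ryr3 averaged 1.54 ± 0.10 in dehydrated and 1.77 ± 0.09 in euhydrated libraries (SD, n = 5 each), a difference of -0.22 (exact two-sided permutation p = 0.0159, adjusted p = 0.0556 over 7 pairs of related genes). The ratio of Ryr1 to Ryr3 averaged -1.98 ± 0.19 in dehydrated and -1.60 ± 0.19 in euhydrated libraries, a difference of -0.37 (exact permutation p = 0.0159, adjusted p = 0.0556). Neither passed after adjustment. With so few labellings a pair alone could not pass after adjustment over 7 pairs. Whether the fall of Ryr1 and Ryr2 differed from the change of Ryr3 is therefore neither shown nor excluded. The ratios overlapped between the groups for all 7 pairs, and the smallest p that 252 labellings allow is 0.00794.

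The inositol trisphosphate receptor genes did not pass. Itpr1 (ENSRNOG00000007104), the main neuronal form, stood at 103, 99.4, 92.1, 129 and 99.5 CPM in dehydrated libraries 1 to 5. In euhydrated libraries 1 to 5 it stood at 135, 106, 112, 130 and 118 CPM. All but 1 of the dehydrated libraries lay below all of the euhydrated ones, the exception being dehydrated 4. The log2 fold change was -0.20 ± 0.10 (SE), with a 95% interval of -0.42 to 0.02 (adjusted p = 0.225 by edgeR). Without dehydrated 4 it was -0.29 ± 0.07 (adjusted p = 0.0212 by edgeR), and over all settings tried the adjusted p ran from 0.0212 to 0.607.

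Itpr2 (ENSRNOG00000001804), known in the brain chiefly from astrocytes, was at 20.8, 23.6, 21.2, 20.3 and 23.2 CPM in dehydrated libraries 1 to 5. In euhydrated libraries 1 to 5 it was at 19.6, 20.04, 21.0, 17.2 and 20.3 CPM. The groups overlapped, with euhydrated 4 the lowest. Its log2 fold change was 0.15 ± 0.06 (SE, adjusted p = 0.134 by edgeR). Itpr3 (ENSRNOG00000052795), known mainly outside neurones, spanned 8.50 to 10.2 CPM (median 9.38) in dehydrated and 8.62 to 10.9 CPM (median 10.4) in euhydrated libraries. Its log2 fold change was -0.07 ± 0.08 (adjusted p = 0.638 by edgeR). The log2 ratio of Itpr1 to Itpr2 averaged 2.25 ± 0.25 in dehydrated and 2.61 ± 0.23 in euhydrated libraries (SD, n = 5 each), which did not pass (exact permutation p = 0.0556, adjusted p = 0.130 over 7 pairs).

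The STIM genes had the smallest pooled SD of log2 CPM within groups, 0.04 for Stim1 and 0.05 for Stim2, and Wfs1 had the largest at 0.21. Stim1 (ENSRNOG00000020425), the sensor that drives store-operated entry, was at 103, 103, 107, 106 and 108 CPM in dehydrated libraries 1 to 5, against 104, 98.7, 104, 102 and 97.7 CPM in euhydrated libraries 1 to 5. Its coefficient of variation was 2.16% in dehydrated and 3.05% in euhydrated libraries. The log2 fold change was 0.06 ± 0.03 (SE), with a 95% interval of -0.02 to 0.13 (adjusted p = 0.276 by edgeR). Stim2 (ENSRNOG00000002956), which responds to smaller losses of luminal calcium, was at 53.8, 51.2, 54.4, 54.5 and 51.2 CPM in dehydrated libraries 1 to 5. In euhydrated libraries 1 to 5 it was at 57.1, 51.5, 53.1, 51.7 and 51.7 CPM. The means were 53.0 CPM in both groups, and the 95% interval of the log2 fold change was -0.09 to 0.09 (adjusted p = 0.999 by edgeR).

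**Figure D2:**
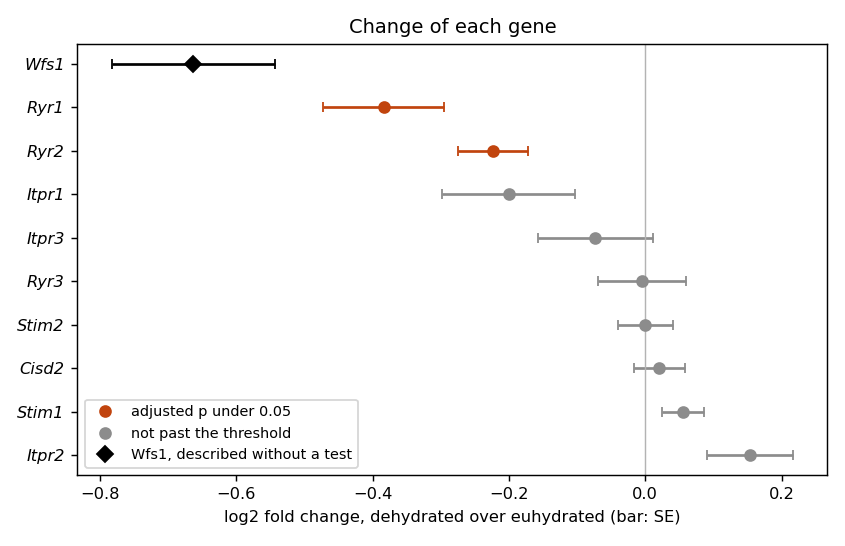
Log2 fold change, dehydrated over euhydrated (x axis), of the 10 genes with its SE (bar), from the edgeR fit to 5 dehydrated and 5 euhydrated libraries. Ryr1 at -0.38 and Ryr2 at -0.22 passed the adjusted threshold, and Wfs1 at -0.66 is shown without a test.

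Of the 9 genes other than Wfs1, 2 fell, 0 rose and 7 did not pass, where 12.7% of all genes tested passed, 7.79% higher and 4.9% lower. At an unadjusted edgeR p of 0.05 the 9 genes gave 2 lower and 1 higher, where 4046 of all 15311 genes passed in either direction. DESeq2 and limma-voom each gave 2 of the 9 lower and 0 higher after adjustment. The median log2 fold change of the 9 genes was -0.0050, beside -0.0058 over all genes tested. Of the same 9 genes 2 showed no overlap between the groups, where 10.9% of all genes did so, 6.9% higher and 3.97% lower. With the erythrocyte covariate described next, 0 of the 9 passed in edgeR, where 583 of all genes tested were higher and 201 lower. The authors' deposited table gave log2 fold changes of -0.39 for Ryr1 and -0.22 for Ryr2, with adjusted p of 0.00227 and 0.0014, and 0.0969 for Itpr1.

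Markers of erythrocytes had a median log2 fold change of -0.72 and those of oligodendrocytes one of -0.18. The erythrocyte markers (8 of 8 listed, 7 tested, 1 lower and 0 higher) summed to 591 to 1428 CPM in dehydrated and 1027 to 2058 CPM in euhydrated libraries, with no marker at 0. With their mean level as a covariate, where Ryr1 and Ryr2 did not pass, Wfs1 had a log2 fold change of -0.69 ± 0.17 (SE). The oligodendrocyte markers (8 of 8 listed, all 8 tested) summed to 9310 to 11875 CPM in dehydrated and 9766 to 14259 CPM in euhydrated libraries. Of these markers 2 fell, Cnp and Opalin, and 0 rose, where 4.9% of all genes tested fell and 7.79% rose. With that level as a covariate, Wfs1 had a log2 fold change of -0.49 ± 0.10 and Itpr1 one of -0.10 ± 0.10, while Ryr1 and Ryr2 still passed at -0.48 and -0.24. With covariates for markers of striatal and of pallial or amygdalar neurones, which lie near the nucleus, Wfs1 had log2 fold changes of -0.71 and -0.66. The part of these cell types in the changes was not tested further.

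The genes whose levels followed Wfs1 most closely over the 10 libraries were Cpne4, Rgs14, Thrsp, Dact1 and Necab2. They had the smallest root mean square differences in centred log2 CPM, 0.15 to 0.16, among 11069 genes with a symbol and at least 5 CPM. The median of those genes was 0.38, and Itpr1, the nearest member, was at 0.26. Cpne4, for a copine that binds membranes in the presence of calcium, was at 18.9, 18.4, 20.03, 27.0 and 20.8 CPM in dehydrated libraries 1 to 5, against 36.9, 22.0, 23.9, 33.6 and 27.7 CPM in euhydrated libraries 1 to 5. As with Wfs1, dehydrated 4 was the highest of its group, and euhydrated 1 and 4 were the highest and euhydrated 2 and 3 the lowest of theirs. Necab2, for a neuronal calcium-binding protein, averaged 39.3 ± 5.21 CPM in dehydrated and 56.0 ± 10.3 CPM in euhydrated libraries (SD, n = 5 each). Likeness was measured over all libraries of both groups, so a difference between the groups is part of it. A shared order of libraries within a group is part of it too, since these genes were chosen by it.

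**Figure D3:**
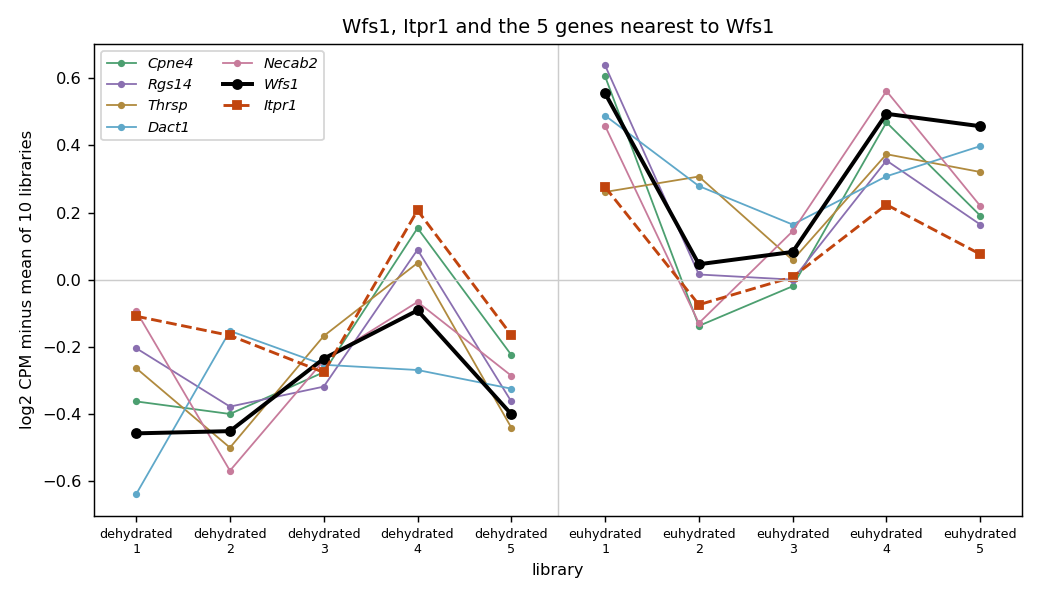
Log2 CPM minus the mean of the 10 libraries (y axis) for Wfs1 (black), Itpr1 (dashed orange) and the 5 genes nearest to Wfs1, in each library (x axis, dehydrated left, euhydrated right); lines join points of 1 gene within a group and carry no order. Wfs1, Itpr1 and Cpne4 are highest of the dehydrated libraries in dehydrated 4 and highest of the euhydrated libraries in euhydrated 1.

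Sequence before the gene start was shown for the 3 genes without overlap between the groups, and for Hspa5, a target of ATF6 that rose. The ER stress response element (ERSE) through which ATF6 acts was searched as CCAAT and CCACG with 9 bases between them, and the related ERSE-II as ATTGG and CCACG with 1 base between them, on both strands. The 250 bases before each start, 5′ to 3′ on the strand of the gene, are from RefSeq on the build GRCr8; all 10 genes of the set matched. Capitals mark CCAAT and CCACG, the end parts of ERSE, on either strand.
Wfs1, chr14:78034955-78035204, plus strand: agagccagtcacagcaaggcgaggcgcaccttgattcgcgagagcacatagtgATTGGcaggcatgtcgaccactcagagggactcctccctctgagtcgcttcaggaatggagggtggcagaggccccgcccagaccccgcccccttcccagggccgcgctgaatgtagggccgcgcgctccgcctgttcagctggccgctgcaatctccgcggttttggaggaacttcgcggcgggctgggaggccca
Ryr1, chr1:93551306-93551555, minus strand: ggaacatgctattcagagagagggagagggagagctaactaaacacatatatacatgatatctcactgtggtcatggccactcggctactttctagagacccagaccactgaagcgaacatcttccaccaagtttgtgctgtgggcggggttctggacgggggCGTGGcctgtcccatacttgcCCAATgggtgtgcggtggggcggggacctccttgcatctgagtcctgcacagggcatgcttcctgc
Ryr2, chr17:63081277-63081526, plus strand: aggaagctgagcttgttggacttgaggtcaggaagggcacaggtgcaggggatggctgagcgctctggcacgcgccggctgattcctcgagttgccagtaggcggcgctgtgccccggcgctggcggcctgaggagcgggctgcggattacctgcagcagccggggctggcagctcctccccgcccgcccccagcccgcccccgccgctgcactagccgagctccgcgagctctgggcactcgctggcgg
Hspa5, chr3:38452766-38453015, plus strand: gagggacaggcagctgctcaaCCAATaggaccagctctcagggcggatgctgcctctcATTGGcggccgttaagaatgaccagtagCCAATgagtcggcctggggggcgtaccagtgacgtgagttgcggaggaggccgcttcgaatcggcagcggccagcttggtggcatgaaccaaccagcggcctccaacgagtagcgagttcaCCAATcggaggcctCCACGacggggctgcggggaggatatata
The window of Hspa5 held 1 ERSE, as 0.0657% of 33469 such windows did. No window of the 10 genes held an exact match to ERSE or ERSE-II, and 0.0418% of all windows held an ERSE-II. Elements whose end parts differ from these letters were not searched for, so a related element in these windows is not excluded. Wfs1 and Ryr1 held 1 CCAAT each and Ryr2 held 0, beside 34% of all windows with at least 1, and Ryr1 alone of the 3 held CCACG, found in 27.2% of windows. These letters are a description of the windows and not a measurement of binding.

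Other genes of the store were taken from 9 lists of 130 genes, of which 121 were tested. Of these 23 rose, 1 fell and 97 did not pass, 19.8% against 12.7% of all genes. Their median log2 fold change was 0.04, beside -0.0058 over all genes. The lists were drawn up with earlier results of these data known.

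Genes that work with STIM proteins at the plasma membrane included the largest rises. Of 12 store-operated entry partners tested 4 rose, 0 fell and 8 did not pass, 33.3% called against 12.7% of all genes. Their median log2 fold change was 0.04. At an unadjusted edgeR p of 0.05 there was 1 lower, and DESeq2 and limma-voom gave 0 lower. Trpc4, a cation channel of the plasma membrane, was at 28.4, 25.0, 27.4, 28.3 and 23.0 CPM in dehydrated libraries 1 to 5, against 16.8, 15.6, 17.4, 15.4 and 16.4 CPM in euhydrated libraries 1 to 5. The groups were far apart, with a 1.62-fold rise (adjusted p = 3.67e-06 by edgeR). Orai1, the pore of store-operated entry, was at 10.1, 11.8, 12.0, 12.0 and 10.8 CPM in dehydrated libraries 1 to 5, against 9.04, 7.37, 7.36, 8.33 and 8.19 CPM in euhydrated libraries 1 to 5. It rose 1.41-fold without overlap (adjusted p = 0.000748 by edgeR). Saraf, an ER protein that slows this entry, averaged 452 ± 6.87 CPM in dehydrated and 345 ± 13.6 CPM in euhydrated libraries (SD, n = 5 each), a 1.31-fold rise (adjusted p = 7.04e-07 by edgeR). The remaining gene, Orai3, named after its value was seen, rose 1.27-fold (adjusted p = 0.00708 by edgeR), while Orai2 had a log2 fold change of -0.13 ± 0.06 (0.181).

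**Figure D4:**
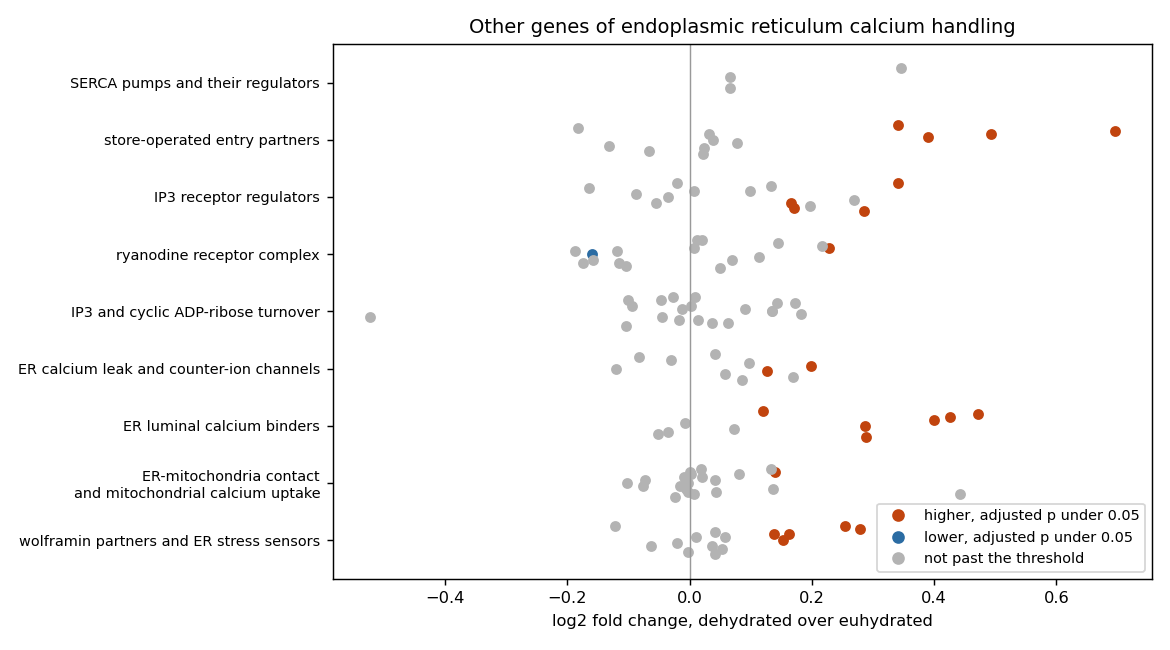
Log2 fold change, dehydrated over euhydrated (x axis), of each gene tested in the 9 lists (rows; height within a row carries no value). Genes past the adjusted threshold are orange where higher (23 genes) and blue where lower (Jph3), and the others are grey; each gene stands in 1 list.

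Of 10 calcium binders of the ER lumen tested 6 rose, 0 fell and 4 did not pass, 60% called against 12.7% of all genes. Their median log2 fold change was 0.20. No binder was lower at an unadjusted edgeR p of 0.05, with DESeq2 or with limma-voom. Calr, for the luminal buffer calreticulin, averaged 798 ± 31.0 CPM in dehydrated and 605 ± 15.5 CPM in euhydrated libraries (SD, n = 5 each), and rose 1.32-fold (adjusted p = 8.07e-07 by edgeR). Hspa5 rose 1.39-fold and Pdia4, a disulphide isomerase gene, 1.34-fold (adjusted p = 1.02e-06 by edgeR for each). The muscle calsequestrin genes did not pass, Casq1 at -0.0067 and Casq2 at -0.05 on the log2 scale (adjusted p of 0.986 for Casq1 and 0.808 for Casq2 by edgeR). Of 15 partners of wolframin and ER stress sensors 5 rose, 0 fell and 10 did not pass, 33.3% called against the same 12.7%. Among them 0 were lower at an unadjusted edgeR p of 0.05, with DESeq2 or with limma-voom. Ddit3, a stress-induced transcription factor, rose 1.21-fold (adjusted p = 0.00241 by edgeR), and Dnajb9, a co-chaperone, 1.19-fold (0.000937). Manf, a secreted ER stress protein, rose 1.12-fold, a log2 fold change of 0.16 ± 0.04 (SE, 0.0191). It did not pass without dehydrated 3 or euhydrated 2, at 0.14 each (0.0558 and 0.0502), or with the erythrocyte covariate, at 0.16 ± 0.06 (0.138). Atf6 had a log2 fold change of 0.14 ± 0.04 (adjusted p = 0.0262 by edgeR), and Syvn1, the ubiquitin ligase that removes ATF6 with wolframin, one of 0.15 ± 0.04 (0.0114).

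Among regulators of the release channels, of 14 inositol trisphosphate receptor regulators 4 rose, 0 fell and 10 did not pass. The share called was 28.6%, against 12.7% of all genes. At an unadjusted edgeR p of 0.05, 1 was lower, and 0 with DESeq2 or limma-voom. Irag1, the cGMP kinase substrate that restrains the receptor (listed as Mrvi1), rose 1.27-fold (adjusted p = 0.0187 by edgeR) at a log2 fold change of 0.34 ± 0.09 (SE). It did not pass with the erythrocyte covariate (0.38 ± 0.12, 0.0896) or the oligodendrocyte covariate (0.33 ± 0.11, 0.0727), where the change was of like size and the SE larger. Bcl2l1, which binds these receptors, rose 1.22-fold (adjusted p = 0.000195 by edgeR), and Erp44, a luminal protein known to inhibit Itpr1, 1.13-fold (0.00422). Of 16 genes of the ryanodine receptor complex 1 rose, 1 fell and 14 did not pass. The share called, 12.5%, was near the 12.7% of all genes. At an unadjusted edgeR p of 0.05 there were 1 higher and 3 lower. Fkbp1a, which binds and steadies the receptor, rose 1.17-fold (adjusted p = 0.00498 by edgeR), a log2 fold change of 0.23, against 0.19 with the erythrocyte covariate (0.108). Jph3, for a junctophilin that holds the ER at the plasma membrane of neurones, was 1.12-fold lower, at 158 ± 5.53 CPM in dehydrated and 176 ± 4.28 CPM in euhydrated libraries (SD, n = 5 each; adjusted p = 0.00308 by edgeR).

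Genes that make or break down inositol trisphosphate and cyclic ADP-ribose gave no call. Of 20 tested 0 passed in edgeR, where 12.7% of all genes did, and 0 passed in DESeq2 or in limma-voom. At an unadjusted edgeR p of 0.05, 2 were higher and 0 lower. Plcg1, a phospholipase C gene named for its CPM and not for a level per length, had 167 ± 12.6 CPM in dehydrated and 165 ± 4.88 CPM in euhydrated libraries (SD, n = 5 each; adjusted p = 0.879 by edgeR). Of 3 SERCA pump genes and regulators 0 passed in edgeR and 0 in limma-voom, with 1 higher in DESeq2 and 1 at an unadjusted edgeR p of 0.05. That gene, Atp2a2, for the pump of most tissues, was at 678 ± 6.51 CPM in dehydrated and 647 ± 9.67 CPM in euhydrated libraries. Its groups did not overlap, with a log2 fold change of 0.07 ± 0.02 (SE; adjusted p = 0.0881 by edgeR, DESeq2 adjusted p = 0.0171).

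Of 10 ER leak and counter-ion channel genes 2 rose, 0 fell and 8 did not pass, 20% called against 12.7% of all genes. At an unadjusted edgeR p of 0.05, 1 was lower, and 0 with DESeq2 or limma-voom. Psen2, a presenilin gene, rose 1.15-fold (adjusted p = 0.0132 by edgeR), a log2 fold change of 0.20, against 0.17 with the erythrocyte covariate (0.169). Sec61a1, the translocon pore, rose 1.09-fold (0.0268) and lost its call in 8 of 23 alternatives, among them those without dehydrated 3, 4 or 5 or euhydrated 1 or 4 (0.0564 to 0.0726), where its log2 fold change was 0.11 to 0.12 against 0.13 with all libraries. Of 21 genes of contact with mitochondria and mitochondrial calcium uptake 1 rose, 0 fell and 20 did not pass. The share called was 4.76%, below the 12.7% of all genes. None was lower at an unadjusted edgeR p of 0.05, in DESeq2 or in limma-voom. The gene that rose, Hspa9, for a chaperone that links the receptor to the mitochondrial channel, was 0.14 higher on the log2 scale (adjusted p = 0.0181 by edgeR). It did not pass without euhydrated 1 (0.12, adjusted p = 0.0516 by edgeR) or with library totals (0.11, 0.0579). Nor did it pass with the erythrocyte covariate (0.16, 0.0723) or the oligodendrocyte covariate (0.13, 0.0589). Mcu, the pore of mitochondrial uptake, had a log2 fold change of -0.10 ± 0.05 (adjusted p = 0.247 by edgeR).

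**Figure D5:**
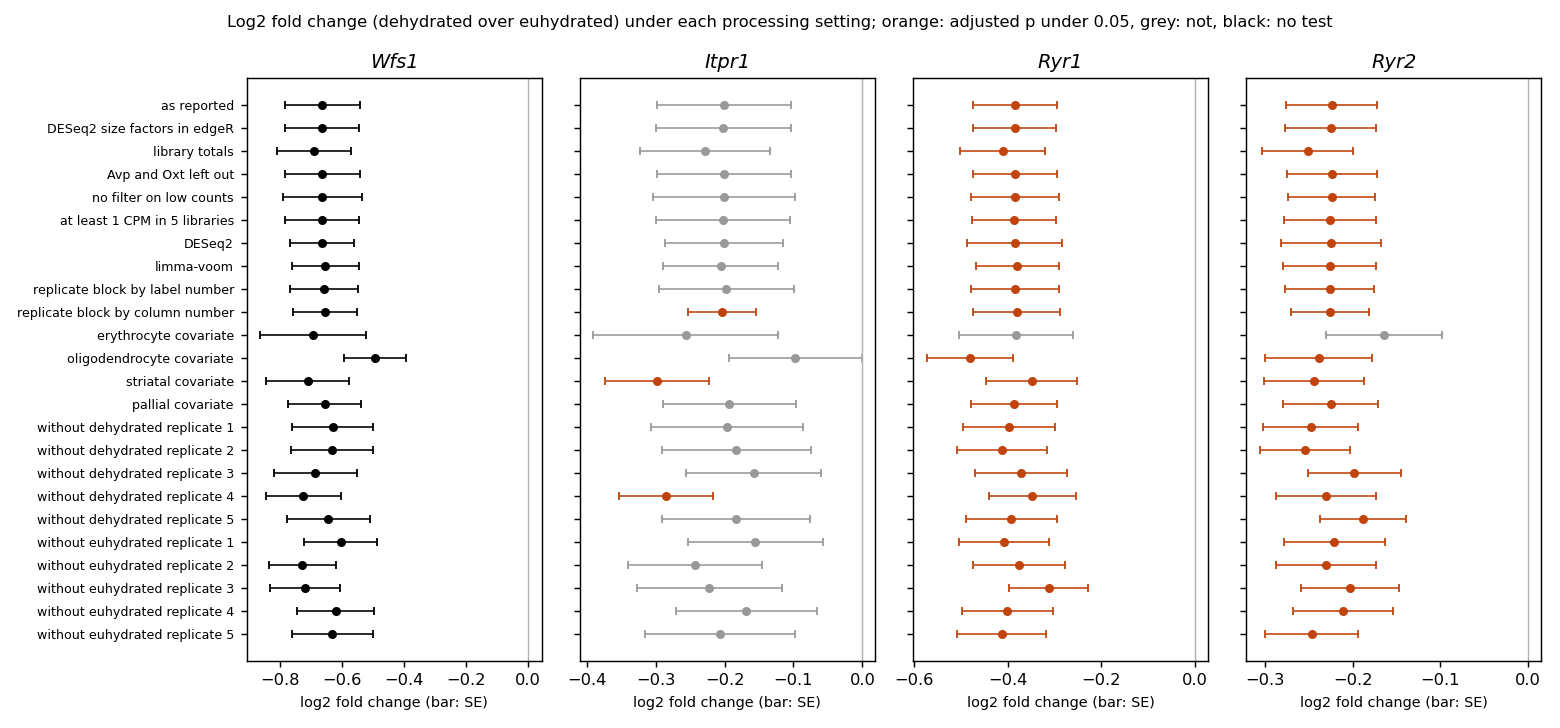
Log2 fold change, dehydrated over euhydrated (x axis, bar: SE), of Wfs1, Itpr1, Ryr1 and Ryr2 as reported and under each of 23 alternative settings (rows). Wfs1, chosen for its fall and shown without a test, stayed between -0.73 and -0.49. Ryr1 and Ryr2 lost their calls with the erythrocyte covariate, and Itpr1 passed in 3 of the 23.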

How the data were processed

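Unnormalised read counts for Ensembl genes, 1 column per library, were deposited by the authors beside their own comparison. Per the file headers, the comparison gives log2 fold changes with SEs, p-values, the Wald score, and a normalised signal per library. All of the normalised values equalled the deposited count over 1 size factor per library, within 1% or 0.1. The submitters' processing notes name STAR, featureCounts, CASAVA, FastQC and DESeq2 1.28.1. The kit was stranded per the labels, but the strand setting of the counting, the build and the annotation were not given in the sources used here. Genes that overlap others are therefore uncertain. Euhydrated columns 3 to 5 were tied to the group only, because titles and descriptions number them differently. No library was treated as a duplicate, since within-group pairs had chi-square values of 4.86 to 12.1 for each degree of freedom.

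Genes were kept with filterByExpr, scaled by TMM and tested by robust quasi-likelihood (glmQLFit, glmQLFTest; no covariate) in edgeR 4.0.16 and R 4.3.3, adjusted by Benjamini-Hochberg over all 15311 genes. Log2 CPM used a prior count of 2, and 95% intervals were taken from the SE with 8 degrees of freedom. Alternatives were DESeq2 1.42.0, limma-voom (limma 3.58.1), other scalings and filters, replicate blocks, marker covariates and each library left out. In data simulated for this comparison (15204 genes fitted), edgeR recovered 8% of genes changed 1.1-fold, 60% at 1.25-fold, 80% at 1.5-fold and 88% at 2-fold. The simulation changed 50 genes at each fold, whereas 1942 genes were called here. Its adjusted threshold was therefore stricter, and recovery in the real data may be higher.

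The genes and lists were chosen with earlier results of these data known. Named were all 10 genes, up to 3 called genes of each list by size of change (or, with none called, the most abundant), and the 5 genes nearest to Wfs1; further genes were named after their values were seen. Unmatched genes were not analysed here.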

Additional observations from a re-analysis of the deposited data

Results flagged for a closer look

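Among 34 named genes in 2 groups of 5 libraries each, 4 values stood apart from the rest of their group by more than Dixon's 95% limit, where chance gives about 1 in 20 of the 68 groups looked at. Stim2 was at 57.1 CPM in euhydrated 1, the other euhydrated libraries reaching 53.1 CPM. Plcg1 was at 188 CPM in dehydrated 1, with the next at 164 CPM. Psen2 was at 30.1 CPM in dehydrated 1, below the others from 33.4 CPM. Cpne4, which was chosen for its likeness to Wfs1 over these libraries, was at 27.0 CPM in dehydrated 4, above the next at 20.8 CPM. Dehydrated 4 also had the highest Wfs1 and Itpr1 of its group. The causes were not tested.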

How the results depend on the processing

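Wfs1 kept its direction under all 23 alternatives, with log2 fold changes of -0.73 to -0.49. Since it was chosen for its fall in these same libraries, this describes the settings and is no test of the fall. Library totals gave 1173 genes lower. The erythrocyte covariate gave 583 genes higher, 201 lower, 14 pathway genes and 0 of the 9 other genes past the threshold; the cause was not tested. Without 1 library there were 955 to 1113 genes higher, 516 to 689 lower, 20 to 26 pathway genes and 2 to 3 of the 9. Signs turned for genes near 0. Cisd2 was at -0.0065 with library totals and -0.0014 with the erythrocyte covariate. Plcg1 was at -0.012 with library totals, -0.038 with the oligodendrocyte and -0.0022 with the striatal covariate, and -0.034 to 0.038 without 1 library. Ryr3 was at 0.042 with the oligodendrocyte covariate and -0.050 to 0.033 without 1 library. Stim2 was at 0.00050 with limma-voom, 0.0021 with the pallial covariate and -0.010 to 0.028 without 1 library. Itpr1 also passed with the striatal covariate (-0.30, adjusted p = 0.0290 by edgeR).

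No pairing of the libraries by replicate number was seen in their deviations over genes. Same-numbered libraries correlated at -0.089 to 0.20, and 2 of 10 libraries correlated best with their own number. This does not exclude a pairing, since euhydrated columns 3 to 5 could not be tied to replicate labels. A block by label number gave 1146 genes higher and 715 lower, and one by column number 1160 and 796, with 2 and 3 of the 9 genes past the threshold. Stim2 was at 0.00048 and 0.00020 in these blocks, and Itpr1 passed in the block by column number (-0.20, adjusted p = 0.0250 by edgeR). There the SE of Itpr1 was 0.05, against 0.10 without a block, while that of Ryr1 was 0.09 in both. The family ratios were recomputed without each library, an alternative chosen after seeing the data, and none passed. With so few labellings, 1 pair alone could not pass after adjustment over 7 pairs, so this says little about the ratios. Most changes of 1.1-fold were not recovered in the simulation, which changed fewer genes than were called here and so may understate detection. Ryr1 rests on 147 to 307 counts a library.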

Other observations

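Itpka, which phosphorylates inositol trisphosphate and is known from dendrites of forebrain neurones, was singled out after its values were seen. It stood at 2.58, 2.37, 3.25, 4.76 and 2.84 CPM in dehydrated libraries 1 to 5, against 6.43, 2.79, 3.56, 6.28 and 3.62 CPM in euhydrated libraries 1 to 5. Dehydrated 4 was the highest of its group, and euhydrated 1 and 4 were the highest and euhydrated 2 and 3 the lowest of theirs, as for Wfs1. The log2 fold change was -0.52 ± 0.27 (SE; adjusted p = 0.244 by edgeR).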
